A study of Mus musculus with 14 samples.

Results

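Genes that start, restrain or sense blood clotting were followed in cultured mouse hepatic stellate cells (HSCs), the liver pericytes that turn into matrix-producing myofibroblasts when the liver is injured. The set held 9 genes chosen by symbol, namely tissue factor (F3), the Kunitz-type inhibitors Tfpi and Tfpi2, thrombomodulin (Thbd), the endothelial protein C receptor (Procr), the vitamin K dependent proteins Pros1 and Gas6, and the protease-activated receptors F2r and F2rl1. A gene counted as measured where the array table paired a probe set with exactly that symbol. This held for 8 of the 9 genes, each with 1 probe set, among 19938 gene symbols in all, and F2rl1 was not analysed here.

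The RNA came from primary HSCs of BalbC mice (Balb/cByJ in the methods) that were freshly isolated, washed and grown as control cells or with 2.5 mM valproic acid (VPA), an inhibitor of histone deacetylases. The treated groups are VPA4h and VPA64h, named for the hours of culture, with 3 arrays each. The untreated groups are Ctrl4h with 3 arrays, Ctrl16h with 2 and Ctrl64h with 3. All 14 cultures were kept in medium with fetal bovine serum, and the replicates of a group are described as separate isolations of the cells, each with 1 array. The deposited values are log2 expression levels from Affymetrix Mouse Gene 1.0 ST arrays after robust multi-array averaging (RMA), so a difference of 1 is 2-fold and every change is relative to the other transcripts of the array.

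Clotting begins when tissue factor, a membrane protein that many perivascular cells carry, binds factor VIIa and activates factor X. Tfpi blocks that complex, whereas its relative Tfpi2 acts mainly on plasmin and other matrix-degrading proteases. Thrombomodulin binds thrombin and redirects it from fibrinogen to protein C, which Procr presents on the cell surface and for which protein S, the product of Pros1, is the cofactor. Protein S and Gas6 are also ligands of the receptor kinases Tyro3, Axl and Mertk (the TAM receptors). F2r encodes the receptor that thrombin switches on by cutting its extracellular end, and thrombin is known as a stimulus for the growth and contraction of activated HSCs.

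The label of the cells was checked against marker genes. All 10 stellate cell markers had group means above a log2 level of 6 in every group, except 1 that was below it in Ctrl16h, and their mean lay between 9.75 and 10.98 on all arrays. Of other cell types, 6 to 7 of 9 markers of Kupffer cells and macrophages were below 6, as were 2 to 4 of 8 of hepatocytes, 2 to 8 of 10 of sinusoidal endothelial cells, 2 of 5 of platelets and 2 of 6 of mesothelial cells. Probe sets differ in their affinity, so levels of different genes cannot be set against each other, and at least 1 marker of each of these other cell types lay above 6 in every group. Of 4 activation markers, Acta2 averaged 11.80 ± 0.16 in VPA64h and 12.97 ± 0.02 in Ctrl64h (SD, n = 3 each), and Lox averaged 9.23 ± 0.09 in VPA64h and 10.96 ± 0.09 in Ctrl64h. Col1a1 averaged 11.32 ± 0.05 in VPA64h and 12.01 ± 0.03 in Ctrl64h, whereas Tagln lay the other way, at 13.04 ± 0.08 in VPA64h and 12.75 ± 0.02 in Ctrl64h (SD, n = 3 each). All 5 groups were fitted together with limma. A gene was called, and is written as having risen or fallen, at a p-value adjusted by Benjamini-Hochberg over 23410 probe sets under 0.05 together with a change of at least 2-fold. Of the 10 stellate cell markers 5 fell and none rose in Ctrl16h relative to Ctrl4h, against 1.21% of all tested probe sets that fell. In Ctrl64h relative to Ctrl4h 6 of these markers fell and 1 rose, against 3.71% and 6.68% of all tested probe sets.

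In control culture tissue factor, Tfpi2 and Procr fell, and Tfpi, Gas6 and F2r rose. Between 64 h and 4 h 3 of the 8 genes rose and 3 fell, against 6.68% of all tested probe sets that rose, 3.71% that fell and 10.4% in either direction. Of the 14878 probe sets with a group mean of at least 6, 15.6% were called. Pros1 and Thbd differed less than 2-fold, and all 8 genes had an adjusted p under 0.05, as did 56.7% of all tested probe sets. The 8 genes were measured well above the middle of the arrays, with mean levels at the 69.5th to 97.5th percentile of the tested probe sets. The median change of the 8 genes was -0.12 and that of all tested probe sets -0.09. Of 12 housekeeping genes 10 had an adjusted p under 0.05 in this comparison, and 2 rose and 1 fell, so they were not a constant reference. With each array centred on these 12 genes, which moved every change in this comparison by -0.13, 3 of the 8 rose and 4 fell. Of the 23410 tested probe sets 1221 rose and 1126 fell in that setting. With centring on Gapdh, which moved every change by -0.56, none of the 8 rose and 4 fell, against 525 and 3928 of the 23410. Tfpi (0.82), Gas6 (0.59) and F2r (0.99) were then under 2-fold and Thbd (-1.53) was past it.

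Fewer of the genes were called for VPA. After 4 h 1 of the 8 genes was called, Thbd, which was lower in VPA4h, against 0.555% of all tested probe sets lower and 1.42% called in either direction. After 64 h none of the 8 was called by limma and none by the analysis of variance that the methods name, against 2.14% of all tested probe sets by limma. At 64 h 5 of the 8 genes had an unadjusted p under 0.05, against 8007 of the 23410 tested probe sets. At 64 h 4 had an adjusted p under 0.05, against 24% of all tested probe sets. Of these 4, F3 and Tfpi were higher and Thbd and F2r lower in VPA64h. Same-numbered treated and control arrays deviated together at each time, and with the replicate number as a block within each time Tfpi2 and Procr also had an adjusted p under 0.05 at 64 h and Tfpi2 at 4 h. The comparisons over time and with VPA use the same Ctrl4h and Ctrl64h arrays and are therefore not independent of each other.

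**Figure D1:**
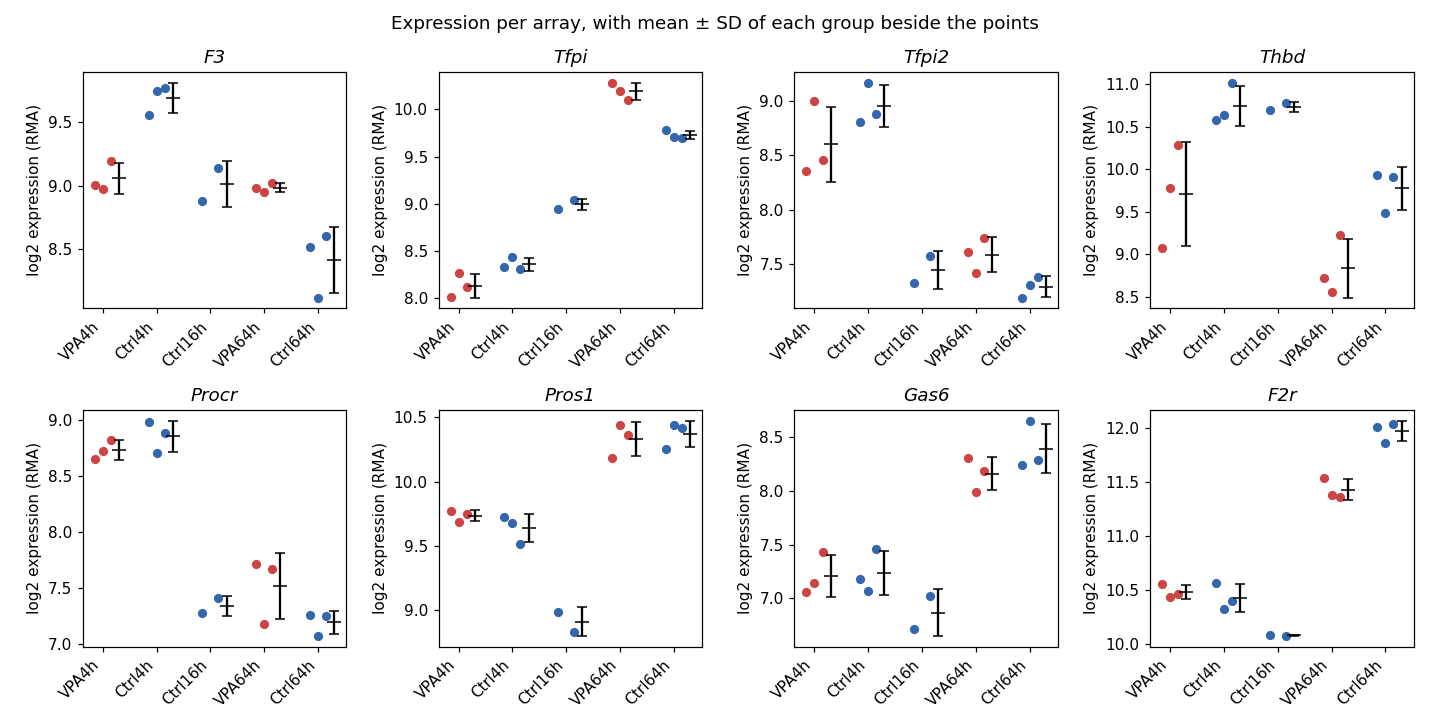
Log2 expression level of each of the 8 genes on each of the 14 arrays (vertical axis) by group (horizontal axis), with each VPA group to the left of the control group of the same time. Points are arrays (red with VPA, blue without) and the bars beside them show the mean ± SD. F3, Tfpi2 and Procr were highest at 4 h of control culture, Tfpi was highest in VPA64h, and F2r was highest in Ctrl64h.

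Tissue factor declined over control culture and had nearly the same level with VPA at both times. F3 had log2 levels of 9.003, 8.97 and 9.20 in VPA4h and 8.98, 8.95 and 9.02 in VPA64h, against 9.55, 9.74 and 9.77 in Ctrl4h, 8.88 and 9.14 in Ctrl16h and 8.52, 8.12 and 8.60 in Ctrl64h. All VPA4h arrays were below all Ctrl4h arrays, whereas all VPA64h arrays were above all Ctrl64h arrays. F3 fell by 1.27 (SE 0.12, adjusted p = 2.09e-07 with limma) in Ctrl64h relative to Ctrl4h, a 2.41-fold decrease. The decline was spread over both intervals, at -0.68 (SE 0.13, adjusted p = 0.0016) for Ctrl16h minus Ctrl4h and -0.59 (SE 0.13, adjusted p = 0.00194) for Ctrl64h minus Ctrl16h, each under 2-fold.

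The difference between treated and untreated cells had opposite signs for F3 at 4 h and 64 h. It was -0.63 (SE 0.12, adjusted p = 0.000887 with limma) for VPA4h minus Ctrl4h and 0.57 (SE 0.12, adjusted p = 0.0023) for VPA64h minus Ctrl64h. The VPA effect at 64 h exceeded that at 4 h by 1.20 (SE 0.17, adjusted p = 0.000156), and F3 was the only one of the 8 genes past both limits in this comparison, against 0.893% of all tested probe sets in that direction and 2.59% in either. The difference of the VPA effects had an adjusted p under 0.05 for 4 of the 8 genes, against 15.9% of all tested probe sets. Between VPA64h and VPA4h the difference was -0.07, with a 95% interval of -0.33 to 0.18. Ordered by group mean, F3 was lowest in Ctrl64h and highest in Ctrl4h, and VPA64h, Ctrl16h and VPA4h between them overlapped with their neighbours.

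Tfpi, the inhibitor of the tissue factor complex, moved the other way in culture. Its log2 levels were 8.01, 8.27 and 8.11 in VPA4h and 10.28, 10.20 and 10.10 in VPA64h, against 8.33, 8.43 and 8.31 in Ctrl4h, 8.95 and 9.04 in Ctrl16h and 9.78, 9.71 and 9.70 in Ctrl64h. No group overlapped with any other, in the order VPA4h, Ctrl4h, Ctrl16h, Ctrl64h and VPA64h from low to high. Tfpi rose by 2.06 (SE 0.08, adjusted p = 7.15e-11 with limma) in VPA64h relative to VPA4h, a 4.18-fold increase that ranked 139th in size among the tested probe sets. It rose by 1.37 (SE 0.08, adjusted p = 2.08e-09) in Ctrl64h relative to Ctrl4h.

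The increase of Tfpi in control culture was divided between the intervals, at 0.64 (SE 0.10, adjusted p = 0.000161 with limma) for Ctrl16h minus Ctrl4h and 0.74 (SE 0.10, adjusted p = 1.48e-05) for Ctrl64h minus Ctrl16h. VPA64h exceeded Ctrl64h by 0.47 (SE 0.08, adjusted p = 0.000808), or 1.38-fold, and VPA4h minus Ctrl4h was -0.23 (SE 0.08, adjusted p = 0.075). The VPA effect at 64 h was larger than that at 4 h by 0.69 (SE 0.12, adjusted p = 0.000881), under 2-fold.

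Tfpi2 had its high levels at 4 h and was already low at 16 h. The log2 levels were 8.35, 8.997 and 8.46 in VPA4h and 7.61, 7.42 and 7.74 in VPA64h, against 8.81, 9.17 and 8.88 in Ctrl4h, 7.33 and 7.57 in Ctrl16h and 7.19, 7.30 and 7.39 in Ctrl64h. The 4 h groups overlapped with each other and lay above all 16 h and 64 h arrays. Tfpi2 fell in Ctrl16h relative to Ctrl4h, with a change of -1.50 (SE 0.17, adjusted p = 1.01e-05 with limma), and Ctrl64h minus Ctrl16h was -0.16 (SE 0.17, adjusted p = 0.475). It fell by 1.66 (SE 0.15, adjusted p = 1.28e-07) in Ctrl64h relative to Ctrl4h.

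With VPA Tfpi2 fell by 1.02 (SE 0.15, adjusted p = 3.46e-05 with limma) in VPA64h relative to VPA4h, just past 2-fold. That call was lost without VPA4h replicate 2, at -0.82, and without VPA64h replicate 2, at -0.93. The difference between treated and control cells was -0.35 (SE 0.15, adjusted p = 0.121) at 4 h and 0.29 (SE 0.15, adjusted p = 0.178) at 64 h. With the replicate block within each time these differences had SE 0.09 and adjusted p = 0.0212 at 4 h and 0.0429 at 64 h by limma. The VPA64h arrays lay just above the Ctrl64h arrays without overlap.

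Procr followed a course much like that of Tfpi2. Its log2 levels were 8.65, 8.73 and 8.83 in VPA4h and 7.71, 7.18 and 7.67 in VPA64h, against 8.98, 8.71 and 8.88 in Ctrl4h, 7.28 and 7.41 in Ctrl16h and 7.26, 7.07 and 7.25 in Ctrl64h. All arrays of the 4 h groups were above all later arrays. Procr fell by 1.52 (SE 0.14, adjusted p = 1.89e-06 with limma) in Ctrl16h relative to Ctrl4h, a 2.86-fold decrease, and by 1.67 (SE 0.12, adjusted p = 1.76e-08) in Ctrl64h relative to Ctrl4h. Ctrl64h minus Ctrl16h was -0.15 (SE 0.14, adjusted p = 0.41).

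Procr fell with VPA as well, by 1.22 (SE 0.12, adjusted p = 8.2e-07 with limma) in VPA64h relative to VPA4h. VPA4h minus Ctrl4h was -0.12 (SE 0.12, adjusted p = 0.616), with a 95% interval of -0.39 to 0.14, and VPA64h minus Ctrl64h was 0.33 (SE 0.12, adjusted p = 0.0719), with an interval of 0.06 to 0.59. With the replicate block within each time the adjusted p of VPA64h minus Ctrl64h was 0.037 by limma. Between 16 h and 4 h of control culture Tfpi2 and Procr were the 2 of the 8 genes that fell and none rose, against 1.21% of all tested probe sets that fell and 1.91% called in either direction. In the same comparison 5 of the 10 stellate cell markers fell. Over the 14 arrays the Pearson r of Tfpi2 with Procr was 0.954, as a description of arrays that share groups, times and normalisation.

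**Figure D2:**
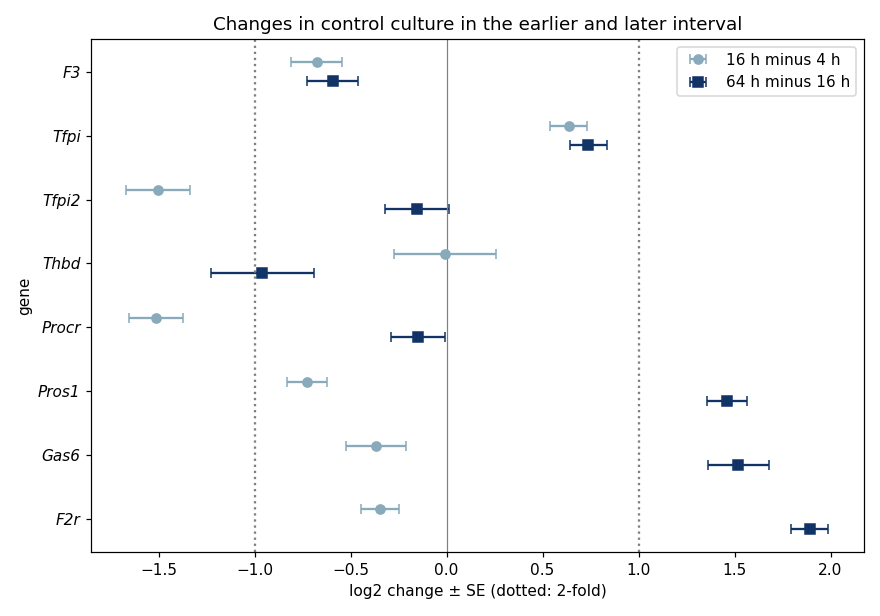
Log2 change of each gene in control culture with its standard error (horizontal axis), for Ctrl16h minus Ctrl4h (circles) and Ctrl64h minus Ctrl16h (squares). Dotted lines mark 2-fold. Tfpi2 and Procr were past 2-fold in the earlier interval at -1.50 and -1.52, and Pros1, Gas6 and F2r in the later one at 1.46, 1.52 and 1.89.

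Promoter sequence is shown for 4 genes because the AP-1 element, which Fos and Jun family factors bind, was found before the start sites of F3, Tfpi2 and Procr, which fell in control culture, and of F2r, which rose. The reference table held windows for 7 of the measured genes, 10 windows in all. Each window covers the 250 bases before a RefSeq start site on build GRCm38.p6 and is written 5′ to 3′ on the strand of the gene. Capitals mark matches on either strand to the AP-1 element TGANTCA, the GC box GGGCGG or the Egr element GCGNGGGCG, whose letters can overlap those of a GC box. The windows are chr3:121723287-121723536 on the plus strand for F3, chr6:3968376-3968625 on the minus strand for Tfpi2, chr2:155750967-155751216 on the plus strand for Procr and chr13:95618467-95618716 on the minus strand for F2r.
F3: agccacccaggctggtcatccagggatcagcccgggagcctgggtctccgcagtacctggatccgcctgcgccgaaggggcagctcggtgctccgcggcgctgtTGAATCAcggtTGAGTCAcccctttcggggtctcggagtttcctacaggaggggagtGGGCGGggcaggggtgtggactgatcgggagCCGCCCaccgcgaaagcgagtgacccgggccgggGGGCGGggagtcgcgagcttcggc
Tfpi2: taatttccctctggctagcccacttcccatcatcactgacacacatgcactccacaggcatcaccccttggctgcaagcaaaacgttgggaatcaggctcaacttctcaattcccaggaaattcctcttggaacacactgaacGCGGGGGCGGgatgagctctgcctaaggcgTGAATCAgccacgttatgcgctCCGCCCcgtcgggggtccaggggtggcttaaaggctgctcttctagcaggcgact
Procr: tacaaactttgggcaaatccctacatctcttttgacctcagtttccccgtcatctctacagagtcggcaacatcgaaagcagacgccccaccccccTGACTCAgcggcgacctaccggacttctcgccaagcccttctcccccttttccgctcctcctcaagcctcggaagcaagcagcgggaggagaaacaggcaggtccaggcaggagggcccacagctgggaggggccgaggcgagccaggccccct
F2r: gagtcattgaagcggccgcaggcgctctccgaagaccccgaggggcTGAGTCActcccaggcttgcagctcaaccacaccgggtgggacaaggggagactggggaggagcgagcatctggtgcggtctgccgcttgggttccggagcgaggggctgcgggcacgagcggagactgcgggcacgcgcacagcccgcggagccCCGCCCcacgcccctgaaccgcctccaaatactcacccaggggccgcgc

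F3 had 2 AP-1 matches, at 146 and 135 bases before the start site, and 3 GC boxes. Tfpi2 had 1 AP-1 match at 77 bases, with an Egr match upstream of it, in only 1 of its 3 listed windows. Procr had an AP-1 match at 154 bases and no GC box, and F2r had one at 204 bases. An AP-1 match occurred in 4 of the 10 windows, against 6.75% of all 32851 windows of that length. A GC box occurred in 7 of the 10, against 32.7%, and an Egr match in 1, against 4.7%. No binding was measured in these samples, and a match is a description of the letters.

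Thrombomodulin showed the largest difference between treated and untreated cells among the 8 genes. Thbd had log2 levels of 9.07, 9.78 and 10.28 in VPA4h and 8.73, 8.56 and 9.22 in VPA64h, against 10.57, 10.64 and 11.02 in Ctrl4h, 10.69 and 10.78 in Ctrl16h and 9.94, 9.48 and 9.91 in Ctrl64h. At each time all treated arrays were below all control arrays, although the VPA4h arrays spread over more than a 2-fold range. Thbd fell by 1.03 (SE 0.24, adjusted p = 0.00433 with limma) in VPA4h relative to Ctrl4h, and VPA64h minus Ctrl64h was -0.94 (SE 0.24, adjusted p = 0.0086), which is 1.92-fold and just short of the limit.

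Both differences of Thbd lay near the 2-fold limit and crossed it with single arrays. At 4 h the call was lost without VPA4h replicate 1, at -0.71, and without Ctrl4h replicate 3, at -0.90. At 64 h the difference was past the limit without VPA64h replicate 3, at -1.13, and without Ctrl64h replicate 2, at -1.09. The VPA effects at the 2 times differed by 0.09, with a 95% interval of -0.62 to 0.81. In control culture Thbd was at -0.01 (SE 0.27, adjusted p = 0.991 with limma) for Ctrl16h minus Ctrl4h and at -0.96 (SE 0.27, adjusted p = 0.00863) for Ctrl64h minus Ctrl16h, and the Ctrl16h arrays lay within the range of the Ctrl4h arrays. With the replicate number as a block in the fit of all groups, Ctrl64h minus Ctrl16h was past the limit at -1.13 (SE 0.20, adjusted p = 0.000466 with limma).

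Thbd, Procr and Tfpi are also made by endothelial cells, and Thbd and Procr by mesothelial cells. The mean level of the 10 sinusoidal endothelial markers was 6.59 to 6.90 in VPA4h and 6.18 to 6.21 in VPA64h, against 6.77 to 7.07 in Ctrl4h, 6.41 to 6.46 in Ctrl16h and 6.45 to 6.71 in Ctrl64h. Of these markers 8 were below 6 in VPA64h and 4 in Ctrl64h. At 64 h 4 of the 10 were lower in VPA64h at an adjusted p under 0.05, against 11.2% of all tested probe sets. The differences of the 10 ran from -1.13 to 0.29. Only Emcn, named after its values were seen, was called, at -1.13 (SE 0.14, adjusted p = 2.61e-05 with limma), against 1.14% of all tested probe sets called lower. Emcn averaged 5.35 in VPA64h and 6.48 in Ctrl64h, against 5.50 in Ctrl4h. At 4 h 1 of the 10 was lower in VPA4h at an adjusted p under 0.05, against 9.96% of all tested probe sets, and none was called. In control culture 3 of the 10 were lower in Ctrl16h than in Ctrl4h at that limit, against 7.32% of all tested probe sets, and 1 fell. For Ctrl64h minus Ctrl4h 6 were lower and 1 higher at that limit, and 1 fell. Over all tested probe sets 31.6% were lower and 5862 of the 23410 higher. The 6 mesothelial markers averaged 5.94 to 6.21 in VPA4h and 6.01 to 6.37 in VPA64h, against 5.83 to 6.38 in Ctrl4h, 5.97 to 6.05 in Ctrl16h and 6.12 to 6.42 in Ctrl64h. Their part in the levels of Thbd, Procr and Tfpi was not tested, and fewer cells of a type and less RNA per cell cannot be told apart in bulk samples.

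**Figure D3:**
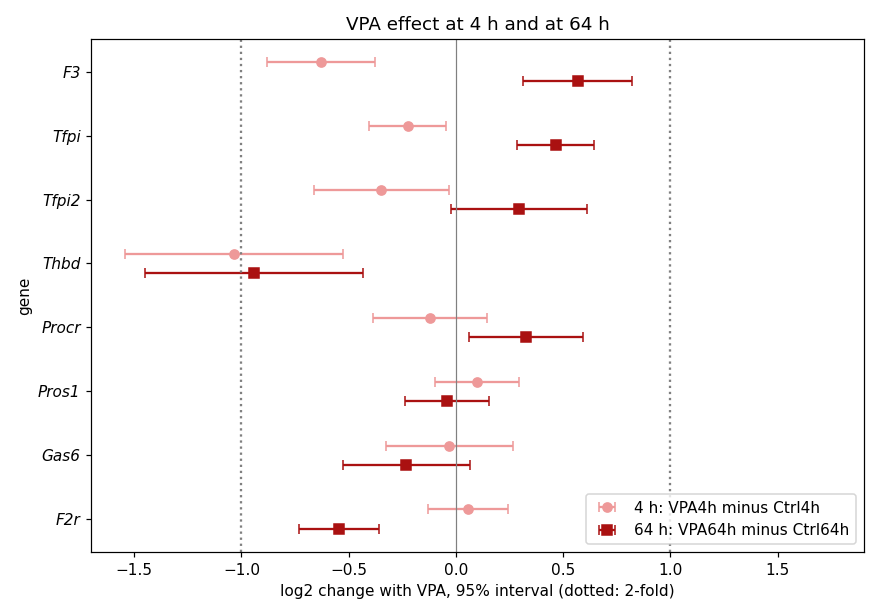
Log2 difference between VPA-treated and control cells with its 95% interval (horizontal axis), for VPA4h minus Ctrl4h (circles) and VPA64h minus Ctrl64h (squares). Dotted lines mark 2-fold. Thbd was lower with VPA at both times, at -1.03 and -0.94, F3 was at -0.63 after 4 h and 0.57 after 64 h, and F2r was at 0.06 after 4 h and -0.54 after 64 h.

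Pros1, Gas6 and F2r had their lowest group mean in Ctrl16h and were higher at 64 h. None of them was called lower in Ctrl16h than in Ctrl4h, where the change was -0.73 for Pros1, -0.37 for Gas6 (SE 0.16, adjusted p = 0.122 with limma) and -0.35 for F2r (SE 0.10, adjusted p = 0.0189). These were the 3 genes that rose between 16 h and 64 h of control culture, and none of the 8 fell, against 4.52% of all tested probe sets that rose and 6.6% called in either direction. With centring on either the housekeeping genes or Gapdh the same 3 rose and Thbd fell, at -1.01 and -1.10. Over all tested probe sets 949 rose and 559 fell with the housekeeping genes, and 814 and 696 with Gapdh. Over the 14 arrays the Pearson r was 0.945 for Gas6 with F2r, 0.892 for Pros1 with F2r and 0.874 for Pros1 with Gas6, again as a description.

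Pros1 had log2 levels of 9.77, 9.69 and 9.75 in VPA4h and 10.19, 10.44 and 10.37 in VPA64h, against 9.72, 9.68 and 9.52 in Ctrl4h, 8.99 and 8.83 in Ctrl16h and 10.26, 10.44 and 10.42 in Ctrl64h. The treated and control arrays overlapped at both times, and both Ctrl16h arrays were below all others. Pros1 rose by 1.46 (SE 0.10, adjusted p = 3.05e-08 with limma) in Ctrl64h relative to Ctrl16h, and Ctrl16h minus Ctrl4h was -0.73 (SE 0.10, adjusted p = 0.0001). VPA4h minus Ctrl4h was 0.10, with a 95% interval of -0.10 to 0.29, and VPA64h minus Ctrl64h was -0.04, with an interval of -0.24 to 0.16.

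Gas6 had log2 levels of 7.06, 7.14 and 7.43 in VPA4h and 8.30, 7.99 and 8.19 in VPA64h, against 7.18, 7.07 and 7.46 in Ctrl4h, 6.72 and 7.02 in Ctrl16h and 8.24, 8.65 and 8.28 in Ctrl64h. All 64 h arrays were above all earlier ones, and treated and control arrays overlapped at each time. Gas6 rose by 1.15 (SE 0.14, adjusted p = 3.76e-06 with limma) in Ctrl64h relative to Ctrl4h and by 1.52 (SE 0.16, adjusted p = 1.61e-06) relative to Ctrl16h. VPA64h minus VPA4h was 0.95 (SE 0.14, adjusted p = 3.68e-05), under 2-fold, and VPA64h minus Ctrl64h was -0.23, with a 95% interval of -0.53 to 0.07.

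F2r, the thrombin receptor, rose more than any other of the 8 genes in control culture. Its log2 levels were 10.56, 10.43 and 10.46 in VPA4h and 11.54, 11.38 and 11.36 in VPA64h, against 10.57, 10.32 and 10.39 in Ctrl4h, 10.08 and 10.08 in Ctrl16h and 12.01, 11.86 and 12.04 in Ctrl64h. The VPA64h arrays lay between the 4 h arrays and the Ctrl64h arrays without overlap. F2r rose by 1.54 (SE 0.09, adjusted p = 8.56e-10 with limma) in Ctrl64h relative to Ctrl4h, a 2.92-fold increase, and by 1.89 (SE 0.10, adjusted p = 1.44e-09), or 3.71-fold, relative to Ctrl16h. VPA64h minus VPA4h was 0.94 (SE 0.09, adjusted p = 2.88e-07), or 1.92-fold.

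For F2r VPA64h minus Ctrl64h was -0.54 (SE 0.09, adjusted p = 0.000292 with limma), 1.46-fold lower with VPA, and VPA4h minus Ctrl4h was 0.06 (SE 0.09, adjusted p = 0.758). The VPA effects at the 2 times differed by -0.60 (SE 0.12, adjusted p = 0.00327). F2r is a thrombin receptor of human platelets, which need not hold for the mouse cells used here. The 5 platelet markers averaged 6.56 to 6.93 in VPA4h and 6.40 to 6.67 in VPA64h, against 6.63 to 6.98 in Ctrl4h, 6.35 to 6.43 in Ctrl16h and 6.17 to 6.44 in Ctrl64h. These are means of log2 levels. Of the 5 markers 2 were lower in Ctrl64h than in Ctrl4h at an adjusted p under 0.05, against 31.6% of all tested probe sets. The changes ran from -1.44 to 0.33 over the 5, and the part of platelets in the level of F2r was not tested.

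Between VPA64h and VPA4h 1 of the 8 genes rose (Tfpi) and 2 fell (Tfpi2 and Procr), against 5.26% of all tested probe sets that rose, 2.29% that fell and 7.55% in either direction. Centred on the housekeeping genes 3 rose and 1 fell, with Gas6 at 1.01, F2r at 1.00 and Tfpi2 at -0.96, and centred on Gapdh 1 rose and 3 fell, with Thbd at -1.22. Over all tested probe sets 1400 rose and 446 fell with the housekeeping genes, and 548 and 1397 with Gapdh. The median change of the 8 genes was 0.26 in this comparison and that of all tested probe sets -0.08. Of the genes called in control culture but not with VPA, Gas6 and F2r had changes just under 2-fold with VPA, and F3 did not differ beyond its spread.

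**Figure D4:**
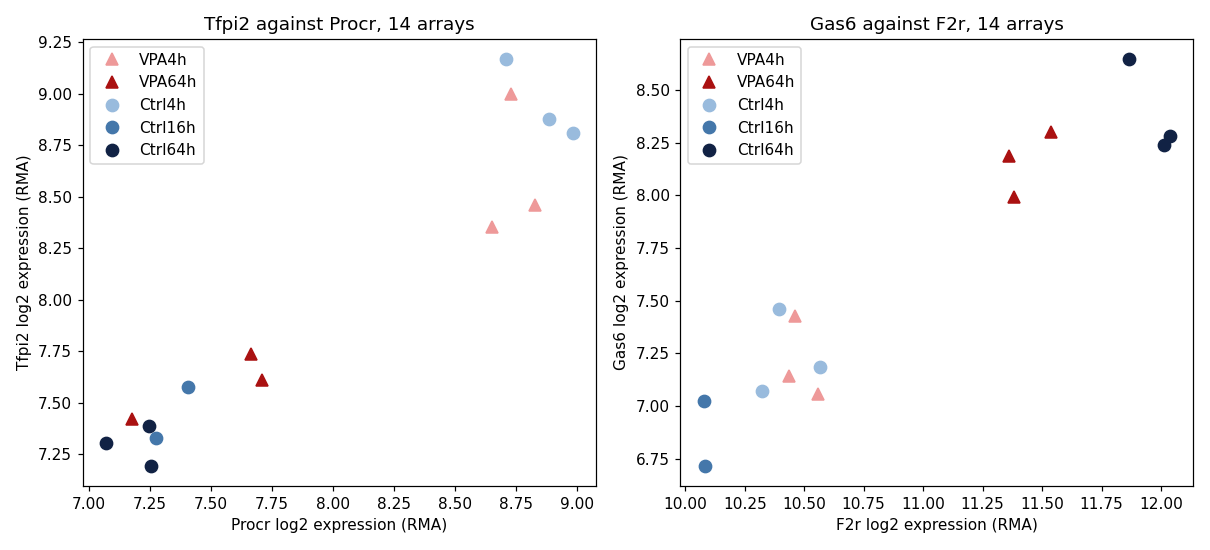
Log2 levels of Tfpi2 (vertical) against Procr (horizontal) on the left and of Gas6 (vertical) against F2r (horizontal) on the right, 1 point per array, with triangles for VPA and circles for control groups. In the left panel all 4 h arrays lie apart from the later ones. In the right panel all 64 h arrays lie above the rest and the Ctrl16h arrays have the lowest F2r.

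The genes whose course was most like each of the 8 were looked up among 3649 genes with at least a 2-fold range of group means, by Pearson r over the 14 arrays. These values are descriptions, since arrays of a group share time, treatment and normalisation. F2r was closest to Bub1b (0.983), Mastl (0.983) and Cdk1 (0.979), which act in mitosis. Gas6 was closest to Ogn (0.965), a matrix proteoglycan, Pdgfd (0.961), a growth factor, and Nrp1 (0.957), a co-receptor for growth factors and semaphorins. Pros1 was closest to Hsd11b1 (0.985), which activates glucocorticoids, Cst3 (0.977), a cysteine protease inhibitor, and Grk5 (0.973), a kinase of G protein coupled receptors.

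Tfpi was closest to Tbc1d19 (0.994), Clybl (0.993) and Ndufa9 (0.991), of which Clybl and Ndufa9 encode mitochondrial proteins. Procr was closest to Acsl4 (0.981), an enzyme that activates arachidonic acid, Crispld2 (0.979) and Camk1d (0.973). Tfpi2 was closest to Jdp2 (0.962), a factor of the AP-1 family, Crispld2 (0.957) and Lmo2 (0.953), so that Crispld2 was among the nearest genes of both. F3 was closest to Inhba (0.922), a subunit of activin, Txnrd3 (0.915) and Tars (0.913), and Thbd to Srm (0.937), the spermidine synthase, Zc3h7b (0.931) and Mthfd1l (0.924).

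A wider list of 36 genes of coagulation was set beside the 8, of which 34 were measured. In Ctrl64h relative to Ctrl4h 3 of the 34 rose and none fell, against 6.68% of all tested probe sets that rose and 10.4% called in either direction, so that the share called was near that of all probe sets. The median of the list was -0.24. Ggcx, the carboxylase that modifies vitamin K dependent proteins such as protein S and Gas6, rose by 1.74 (SE 0.11, adjusted p = 1.76e-09 with limma). Vkorc1, which regenerates vitamin K for that step and is the target of warfarin, rose by 1.39 (SE 0.11, adjusted p = 3.1e-08). The remaining measured gene of the vitamin K cycle, Vkorc1l1, went the other way, at -0.40 with an adjusted p under 0.05. Lman1, part of the carrier that exports factors V and VIII from the endoplasmic reticulum, rose by 1.01 (SE 0.09, adjusted p = 7.04e-08), a call that was lost without Ctrl4h replicate 3, at 0.996. Centred on Gapdh, Vkorc1 (0.83) and Lman1 (0.45) were under 2-fold, and centred on the housekeeping genes Lman1 was (0.88).

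Ggcx averaged 7.86 ± 0.11 in VPA4h and 9.51 ± 0.20 in VPA64h, against 7.46 ± 0.15 in Ctrl4h and 9.20 ± 0.01 in Ctrl64h (SD, n = 3 each). Vkorc1 averaged 7.93 ± 0.17 in VPA4h and 8.94 ± 0.20 in VPA64h, against 7.70 ± 0.09 in Ctrl4h and 9.09 ± 0.11 in Ctrl64h (SD, n = 3 each). Both genes were high at 64 h with and without VPA. Between VPA64h and VPA4h the same 3 of the 34 genes rose, by 1.65 for Ggcx, 1.01 for Vkorc1 and 1.11 for Lman1, against 5.26% of all tested probe sets that rose. Vkorc1l1 was at -0.27. Centred on Gapdh, Vkorc1 (0.66) and Lman1 (0.76) were under 2-fold in this comparison, and the call of Vkorc1 was lost without VPA4h replicate 1 (0.98), VPA4h replicate 3 (0.94) or VPA64h replicate 2 (0.91).

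Between treated and control cells limma called none of the 34 genes. At 4 h 9 of them had an unadjusted p under 0.05, against 6938 of the 23410 tested probe sets. At 4 h 5 had an adjusted p under 0.05, against 21.4% of all tested probe sets. At 64 h 1 gene, Ggcx, passed at either limit, against 8007 of the 23410 unadjusted and 5621 adjusted. Ggcx was 0.31 higher in VPA64h (SE 0.11, adjusted p = 0.0448 with limma). The analysis of variance named in the methods, with the 2-fold limit, called none of the 34 at either time.

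The other groups of the list differed by less than 2-fold. Of 12 clotting factors none was called for Ctrl64h minus Ctrl4h, although 7 were lower at an adjusted p under 0.05, with a median of -0.35, against 31.6% of all tested probe sets that were lower at that limit and 56.7% that passed it in either direction. Of 4 serpin inhibitors 3 were lower at that limit, also with a median of -0.35. Levels were low, with no group mean above 6.87 for a clotting factor and all below 6 for the serpin inhibitors. The remaining measured protease-activated receptors, F2rl2 and F2rl3, stood at -0.46 and -0.52, opposite in sign to F2r. They were dim too, with group means of 4.59 to 5.21 for F2rl2 and 5.52 to 6.16 for F2rl3. All 3 TAM receptors were higher at an adjusted p under 0.05, against 5862 of the 23410 tested probe sets. They stood at 0.44 for Mertk, 0.30 for Tyro3 and 0.28 for Axl, but centred on Gapdh the signs turned, to -0.11, -0.26 and -0.28. Axl, the receptor that Gas6 prefers, had a mean level of 11.17 ± 0.09 in VPA64h and 11.10 ± 0.05 in Ctrl64h (SD, n = 3 each), and Mertk was 0.55 higher in VPA4h than in Ctrl4h (SE 0.14, adjusted p = 0.00908 with limma).

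**Figure D5:**
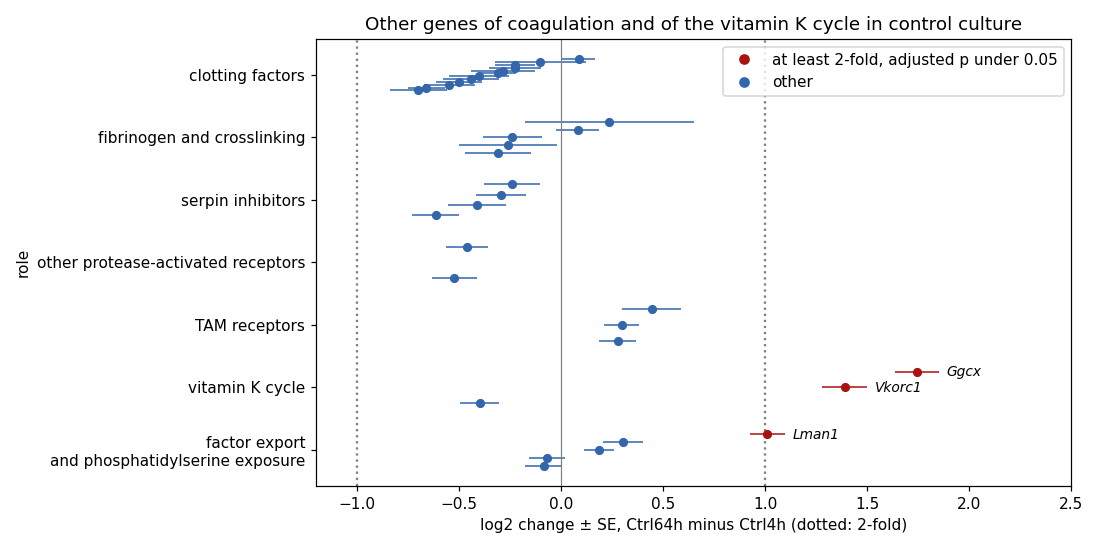
Log2 change with its standard error (horizontal axis) for 34 other genes of coagulation, Ctrl64h minus Ctrl4h, 1 point per gene and grouped by role. Dotted lines mark 2-fold. Ggcx, Vkorc1 and Lman1 lay past 2-fold at 1.74, 1.39 and 1.01, and all clotting factors and serpin inhibitors lay between -0.70 and 0.09.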

How the data were processed

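RNA of 14 HSC cultures was measured on Affymetrix Mouse Gene 1.0 ST arrays. The deposited table holds log2 expression values that the authors made by RMA, in GeneSpring GX 11 according to the paper's methods, whereas Affymetrix Expression Console is the tool in the submitters' processing notes. RMA makes the probe intensities of all arrays equally distributed, so a change shared by most transcripts does not show. Of 35557 probe sets 21789 had exactly 1 gene symbol, 1621 several and 12147 none. The 23410 with a symbol were tested, and genes were named from those with 1.

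The 5 groups were fitted together with limma 3.58.1 (lmFit and eBayes) in R 4.3.3, with 9 residual and 6.52 prior degrees of freedom, in 7 two-sided contrasts. Benjamini-Hochberg adjustment ran over all tested probe sets. The fit was tested on simulated data with known changes. The replicates of a group are described as separate HSC isolations, and the number of arrays limits the precision. Whether the same number marks the same isolation in different groups is not given in the sources used here. Deviations from the group means correlated at 0.139 to 0.279 for the 3 same-numbered pairs of VPA4h and Ctrl4h arrays and at 0.158 to 0.171 for those of VPA64h and Ctrl64h, so the numbers were taken as pairing treated with control arrays at each time. Between times 7 of 20 same-numbered pairs exceeded 0.1 (range -0.238 to 0.233), and no pairing was taken there.

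The genes named are the listed set, up to 3 called members of each group of the wider list, Acta2 and Lox, and the 3 genes with the highest Pearson r to each of the 8. Col1a1, Tagln, Vkorc1l1, F2rl2, F2rl3, the TAM receptors, Emcn and the genes of the closing observations fall outside this rule and were named after their values were seen. Of different probe sets of 1 gene the one with the highest mean was used. These genes, lists and tests were chosen with earlier results of these data known. The alternatives were scaling, call limits, probe sets tested, variance model, array weights, samples in the fit, the replicate number as a block and leaving out each array. None of the 8 genes had another probe set of its own to try. Promoter windows come from RefSeq (GRCm38.p6), and the motifs were chosen after the expression values were known.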

Additional observations from a re-analysis of the deposited data

Results flagged for a closer look

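For 4 of the 8 genes the difference between VPA-treated and control cells was not the same at 64 h as at 4 h by the interaction term of limma, at an adjusted p under 0.05. Tissue factor stood out most, since the VPA effect on F3 at 64 h minus that at 4 h was 1.20 (SE 0.17, adjusted p = 0.000156), with all VPA64h arrays above all Ctrl64h arrays and all VPA4h arrays below all Ctrl4h arrays. It was past 2-fold in all 26 alternatives run, at 1.05 to 1.40.

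The difference of effects was 0.69 for Tfpi (SE 0.12, adjusted p = 0.000881) and 0.64 for Tfpi2 (SE 0.21, adjusted p = 0.0491), with VPA higher relative to its control at 64 h than at 4 h. It was -0.60 for F2r (SE 0.12, adjusted p = 0.00327), whose treated arrays overlapped with the control arrays at 4 h and were all below them at 64 h. Over 26 alternatives the adjusted p ran from 0.000176 to 0.00331 for Tfpi, from 0.00448 to 0.13 for Tfpi2 and from 0.000405 to 0.101 for F2r, so that Tfpi2 and F2r lost their side of the limit in some.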

How the results depend on the processing

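Over all genes, comparisons and alternatives run for the 8 genes, 1472 values, 1402 kept their call, 8 were weaker, 62 stronger and none of the called ones reversed. Some uncalled values near 0 changed sign. Thbd ran from -0.43 to 0.16 for Ctrl16h minus Ctrl4h, and Pros1 from -0.23 to 0.14 for VPA4h minus Ctrl4h. The count of the 8 genes called moved by more than 1.5 times as follows. With no fold limit it was 6 for Ctrl16h minus Ctrl4h (2 with the 2-fold limit), 6 for Ctrl64h minus Ctrl16h (3), 2 for VPA4h minus Ctrl4h (1), 4 for VPA64h minus Ctrl64h (0), 7 for VPA64h minus VPA4h (3) and 4 for the difference of the VPA effects (1). In the same order, 20.1%, 43.1%, 21.4%, 24%, 50.4% and 15.9% of all tested probe sets passed with no fold limit. With a 1.5-fold limit the counts of the 8 genes were 5, 6, 2, 1, 7 and 4 in that order. Over the 23410 tested probe sets they were 1770, 4230, 1731, 1813, 4703 and 2213. Centred on Gapdh, read from 1 of 25 probe sets that Gapdh shares with other loci, the count was 4 for Ctrl16h minus Ctrl4h and 1 (Thbd) for VPA64h minus Ctrl64h. Leaving out 1 array gave 0 to 1 for VPA4h minus Ctrl4h, with 0 without VPA4h replicate 1 or Ctrl4h replicate 3, and 0 to 1 for VPA64h minus Ctrl64h, with 1 without VPA64h replicate 3 or Ctrl64h replicate 2, both through Thbd. The cause of these moves was not tested beyond the construction of each setting.

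Over all probe sets, the split into higher and lower calls moved with scaling. It was 1564 and 868 for Ctrl64h minus Ctrl4h, 1221 and 1126 with the housekeeping genes and 525 and 3928 with Gapdh. For VPA4h minus Ctrl4h it was 203 and 130, then 109 and 243, then 45 and 519, for VPA64h minus Ctrl64h 234 and 268, 270 and 227, and 163 and 360, for VPA64h minus VPA4h 1231 and 537, 1400 and 446, and 548 and 1397, for Ctrl16h minus Ctrl4h 165 and 283, 127 and 331, and 39 and 842, and for Ctrl64h minus Ctrl16h 1058 and 486, 949 and 559, and 814 and 696. For the difference of the VPA effects it was 209 and 397, 465 and 229, and 506 and 220. With a 1.5-fold limit 1731 to 5657 probe sets were called, against 333 to 2432 with the 2-fold limit, and with no fold limit 15.9% to 56.7% were. With probe sets without a symbol added, 2350 were called for Ctrl64h minus Ctrl16h, against 1544.

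With the replicate block over all groups 4 of the 8 genes were called for Ctrl64h minus Ctrl16h, against 3 without it, through Thbd at -1.13 (adjusted p = 0.000466 with limma), and the count was the same in the other 6 comparisons. A block within each time, with only the treated and control groups of 4 h and 64 h in the fit, was chosen after seeing the data. It gave 1 of the 8 genes called at 4 h, 0 at 64 h and 1 for the difference of the VPA effects, as without it, and changed no other call of the 8 genes.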

Other observations

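Further genes of the same pathways were read after the values of the 8 were known, and are given as log2 differences without a test. Among other vitamin K dependent proteins, Prrg3, a membrane protein with a carboxylated domain, was 1.65 higher in Ctrl64h than in Ctrl4h (SE 0.12) and at -1.02 (SE 0.12) for VPA64h minus Ctrl64h. Its relative Prrg1 was 0.69 higher in Ctrl64h than in Ctrl4h (SE 0.16), and Mgp, the inhibitor of calcification, differed by 0.12 (SE 0.17). Over the 5 genes read, VPA64h minus Ctrl64h ran from -1.02 for Prrg3 to 0.43 for Prrg4.

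Arrestins bind activated receptors such as F2r and end their signal. The arrestin gene Arrb2 was 1.30 higher in VPA4h than in Ctrl4h (SE 0.09) and 0.58 higher in VPA64h than in Ctrl64h (SE 0.09). Arrb1 was 0.62 higher in VPA4h than in Ctrl4h (SE 0.11), and 1.27 higher in Ctrl64h than in Ctrl4h (SE 0.11). Of the G protein subunits that the receptor uses, Gnaq was 0.63 higher (SE 0.08) and Gna13 was at -0.69 (SE 0.08) for Ctrl64h minus Ctrl4h. Gna11 and Gna12 differed less between these 2 groups, with means of 9.63 and 9.38 in Ctrl4h and 9.74 and 9.29 in Ctrl64h. Gna11 was higher in VPA4h and in Ctrl16h, with means of 10.25 and 10.20. Over the 9 genes read for this receptor, VPA4h minus Ctrl4h ran from 0.05 to 1.30. Their median was 0.40, against -0.03 over all tested probe sets.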
